A study of Mus musculus with 6 samples.

Results

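BLOC-1 is a protein complex of 8 subunits that helps to sort membrane cargo from early endosomes to lysosome-related organelles such as melanosomes and platelet dense granules. Its subunits are small, largely coiled-coil proteins. Loss of a subunit in mice gives coat-colour and bleeding mutants, of which pallid (Bloc1s6) and sandy (Dtnbp1) are the best known. Some subunits, Bloc1s1, Bloc1s2 and Snapin among them, also belong to BORC, a related complex that positions lysosomes in the cell.

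The subunits were followed here in testis of mice with and without the serine protease gene Prss55. The probes of 7 of them (Bloc1s1, Bloc1s2, Bloc1s3, Bloc1s4, Bloc1s6, Dtnbp1 and Snapin) were looked up by the gene name printed in the array files. This found 10 probes of 6 of the genes among 41174 probes on the array, 28606 of which were bright enough to test. All 10 were tested. Bloc1s2 has no probe under that name, but 1 probe named Bloc1s2a carries the RefSeq accession of Bloc1s2 and was added. The other subunit, Bloc1s5, has 2 probes and is described with the rest, which makes 13 probes for all 8 subunits. Bloc1s6 was chosen by its measured values, the genotype differences of its probes, so these are given as a description and carry no test. The other subunits were selected on membership of the complex.

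Testis total RNA came from 3 Prss55-/- and 3 wt male mice of 6-8 weeks on a mixed 129Sv/C57BL/6 background, labelled as separate animals, with one Cy3 array per mouse. The null allele was made by homologous recombination with a PGK-Neo selection cassette and is carried in all tissues, and heterozygous parents were intercrossed to obtain the genotypes. Signals are given as log2 values after quantile normalization, in which a difference of 1 is a 2-fold change, and differences are Prss55-/- minus wt. On each array 69.5 to 72.9% of spots were well above background by the scanner software's own call, and no spot was saturated. The 3 Prss55-/- arrays shared 1 slide and the wt arrays lay on the other 2, so slide and genotype cannot be told apart. The Prss55 probe read 15.08, 14.95 and 14.93 in the Prss55-/- mice against 15.87, 15.77 and 16.01 in the wt mice, a difference of -0.90 ± 0.080 (SE, n = 3 per genotype, limma adjusted p = 0.010). The adjusted p of that probe was 0.066 to 0.068 when Prss55-/- replicate 2, Prss55-/- replicate 3 or wt replicate 1 was left out. Which part of the Prss55 transcript the targeted allele lacks was not set against this probe. Of 43 marker genes for the germ cells, somatic cells and macrophages of testis and for epididymis, 36 were tested and 0 passed the adjusted threshold in limma or, after adjustment, by the methods' t-test, beside 1.39% of all genes in limma. An unadjusted limma p below 0.05 was met by 13 of the 36 (36.1%), beside 20.0% of all genes. The counts without overlap that follow stand beside 26.3% of all tested probes, and the difference was not tested. All 5 round spermatid genes were above 0 (median 0.14, 3 without overlap), and their summed log2 signal was 17.25 to 17.38 in Prss55-/- and 17.15 to 17.2 in wt. All 4 macrophage genes were below 0 (median -0.18, 1 without overlap), with sums of 10.91 to 11.05 and 11.07 to 11.18. The 4 tested Leydig cell genes ran from -0.73 to 0.37 (median -0.50) and overlapped at each, with sums of 14.37 to 15.1 and 14.85 to 15.18. The lists of spermatogonia, spermatocytes, elongating spermatids, Sertoli cells, and peritubular and vascular cells had medians between -0.10 and 0.09. All 3 tested peritubular and vascular genes were below 0, with sums of 13.63 to 13.73 in Prss55-/- and 13.75 to 13.82 in wt. Of the elongating spermatid genes 4 of 5 were below 0, with sums of 20.61 to 20.69 and 20.69 to 20.74. The sums of spermatogonia, spermatocytes and Sertoli cells overlapped between the genotypes. Rnase10, made by the epididymis, differed by -2.91 with no overlap between the genotypes (limma adjusted p = 0.092). It was well above background in only 2 of the 3 Prss55-/- mice and in all 3 wt mice, so it entered the test through wt and the size is uncertain. Adam7, Defb42 and Lcn5 of epididymis were not above background on any array. The part of these in the BLOC-1 values was not tested. In whole testis a lower signal can come from fewer cells of a type or from less RNA per cell, and the arrays cannot tell these apart.

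The sequences of the Bloc1s6 probes are given here because the probes read different places in the same gene. Both are 60 bases long, and the array files place both on the plus strand of chromosome 2 in the mm9 build. The first is shown whole because the forward primer of the study's own qRT-PCR assay for Bloc1s6 lies inside it, at bases 5 to 29, in capitals. Of the second, the first 30 bases are shown.

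A_51_P510466 (chr2:122569877-122569936): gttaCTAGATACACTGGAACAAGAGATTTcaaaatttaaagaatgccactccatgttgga

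A_52_P153957 (chr2:122573387-122573446): ggaaatcaaaagtgcagtagtatactttct

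The reverse primer of that assay, cgttgctgctccctctcca, is in neither Bloc1s6 probe and in none of the probes of the other subunits. The forward primer was found in no probe other than A_51_P510466. The assay and the first probe therefore overlap by the 25 bases of that primer. Where the amplified stretch ends was not worked out, and no qRT-PCR value was used here. The second probe starts 3510 bases beyond the first. The array annotation gives both probes the same RefSeq transcript, but lists 3 Ensembl transcripts for the first and 2 for the second, with 0 in common. The probes were not placed in exons, introns or UTRs here, since no annotation of the same build was used.

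Bloc1s6 encodes pallidin, the subunit that binds the SNARE protein syntaxin 12. Its first probe, A_51_P510466, was far lower in every Prss55-/- testis. Its log2 signal was 6.64, 6.54 and 6.72 in the 3 Prss55-/- mice and 9.33, 9.29 and 9.63 in the 3 wt mice. The genotypes were far apart, with 2.57 between the highest Prss55-/- and the lowest wt value. The means were 6.63 ± 0.088 and 9.42 ± 0.18 (SD, n = 3 each), a difference of -2.79. The normalized signal in Prss55-/- testis was 14.5% of that in wt, or 6.90-fold lower. Before normalization the signals were 99.1, 92.2 and 118 in Prss55-/- and 631, 608 and 819 in wt, and all 6 were called well above background. By size of the difference the probe ranked 25 of the 28606 tested, and 17 among those that were lower.

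The second probe, A_52_P153957, did not show this. Its log2 signal was 10.28, 10.24 and 10.26 in Prss55-/- and 10.00, 10.20 and 10.05 in wt. All 3 Prss55-/- mice were above all 3 wt mice, but by a gap of only 0.04. The means were 10.26 ± 0.018 and 10.08 ± 0.10 (SD, n = 3 each), a difference of 0.18, which is 113% of the wt signal. The signals before normalization were 1191, 1177 and 1362 in Prss55-/- and 1003, 1133 and 1093 in wt.

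**Figure D1:**
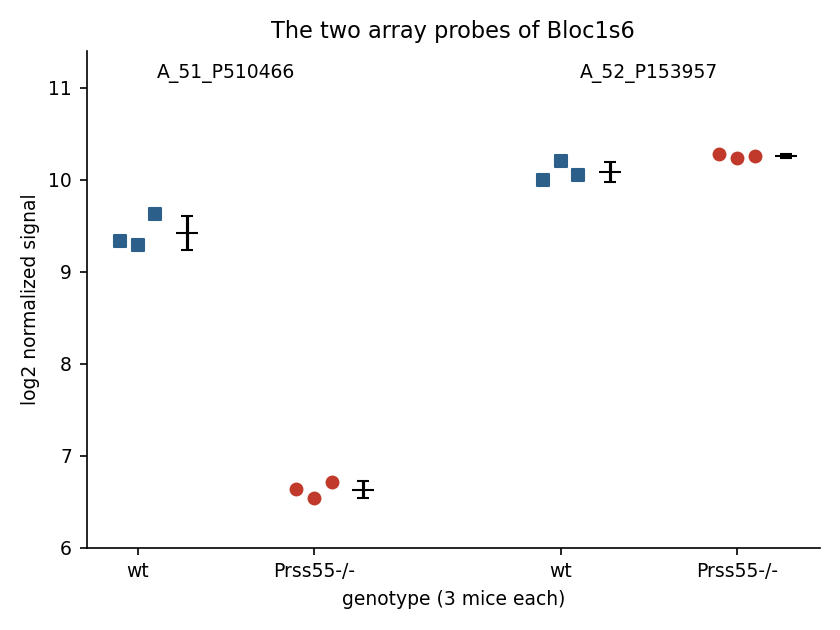
Log2 normalized signal of both Bloc1s6 probes in each mouse, wt as squares and Prss55-/- as circles, with the mean and SD of the 3 mice as a black bar. Probe A_51_P510466 differs by -2.79 in Prss55-/- and A_52_P153957 by 0.18. Heights are not comparable between probes, only between genotypes within a probe.

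The log2 ratio of the first probe to the second was -3.64, -3.70 and -3.54 within the 3 Prss55-/- arrays and -0.67, -0.91 and -0.42 within the 3 wt arrays. A ratio taken within one array does not depend on how arrays are scaled by a constant. It moved by -2.96 between the genotypes, against SDs of 0.078 and 0.25. The ratio shows unequal change at these sites and gives no level of any transcript.

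Such a split between probes of one gene was rare on these arrays. Of 6521 genes with at least 2 tested probes, the median gap between a gene's highest and lowest probe difference was 0.11. In 58 genes (0.889%) the gap was 1 or more, and in 4 genes (0.0613%), Bloc1s6 among them, it reached 2.96. The other subunits with several probes had gaps of 0.08 (Bloc1s1, 2 probes), 0.12 (Bloc1s5, 2 probes) and 0.01 (Dtnbp1, 3 probes). These gaps are a description, since the gap chose Bloc1s6.

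Of the subunits that were put to the test, which leaves out Bloc1s6, none passed. Of 28606 tested probes, 346 (1.21%) passed an adjusted p of 0.05 in limma, with 160 (0.559%) up and 186 (0.65%) down in Prss55-/-. Scaling by the 75th percentile turned that split to 210 higher and 147 lower. Of the 9 probes of the 6 members other than Bloc1s6, 0 passed. None of the 9 had an unadjusted p below 0.05, by limma or by the methods' t-test, beside 19.1% of all tested probes by limma. With only 9 probes, neither count can be told apart from the share over all tested probes. Their differences ran from -0.10 to 0.10 with a median of -0.05, beside a median of 0.0019 over all tested probes. There were 7 below 0 and 2 above. The genotypes did not overlap at 2 of the 9, and 26.3% of all tested probes had no overlap. The 95% intervals of the 9 differences all lay between -0.35 and 0.24, at most 1.27-fold in either direction. Each interval covers its own probe and not the 9 jointly. None allows for slide, which cannot be told apart from genotype.

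**Figure D2:**
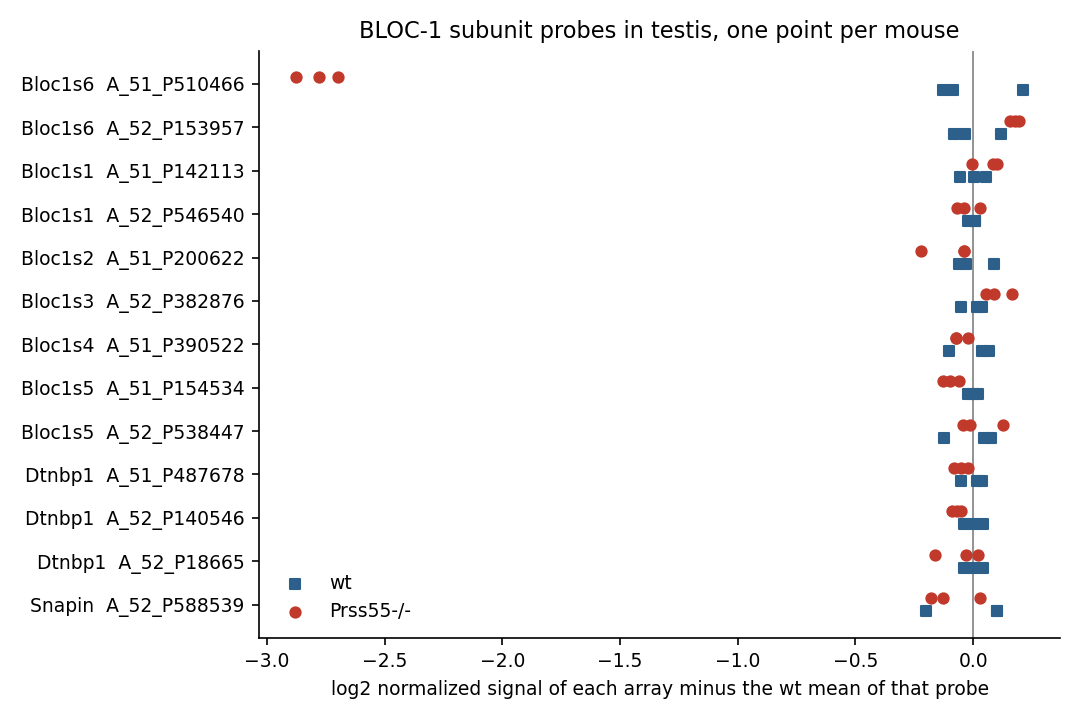
Log2 normalized signal of each mouse minus the wt mean of the same probe, for the 13 probes of the 8 BLOC-1 subunits, with wt as squares and Prss55-/- as circles. The Prss55-/- points of Bloc1s6 probe A_51_P510466 lie below -2.5 and those of every other probe lie within 0.3 of the wt mean.

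Dtnbp1 encodes dysbindin, the subunit altered in sandy mice and a partner of pallidin in the complex. It has 3 probes on the minus strand of chromosome 13, at chr13:45017461-45017520 (A_52_P140546), chr13:45018628-45026390 (A_51_P487678) and chr13:45087427-45089101 (A_52_P18665). The last 2 cover 7763 and 1675 bases of genome with 60 bases of probe, so they cross at least one intron. Probe A_52_P140546 read 14.28, 14.24 and 14.26 in Prss55-/- and 14.33, 14.29 and 14.37 in wt, a difference of -0.07 (SE 0.045, limma adjusted p = 0.46). The genotypes did not overlap there, but the values of all 6 mice were close together. Probe A_51_P487678 read 12.35, 12.41 and 12.38 against 12.47, 12.38 and 12.45, a difference of -0.05 (SE 0.048, limma adjusted p = 0.59). Probe A_52_P18665 read 9.81, 9.94 and 9.99 against 9.93, 9.97 and 10.01, a difference of -0.06 (SE 0.063, limma adjusted p = 0.63). The 3 probes lie across more than the distance between the Bloc1s6 probes and gave nearly the same small difference.

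Snapin, first described as a partner of the SNARE protein SNAP-25, has 1 probe, A_52_P588539, on the minus strand at chr3:90293222-90293281. It read 10.54, 10.70 and 10.49 in Prss55-/- and 10.77, 10.77 and 10.47 in wt. The lowest value of all 6 was a wt mouse, and the genotypes overlapped. The difference was -0.10 (SE 0.10, 95% interval -0.35 to 0.16, limma adjusted p = 0.65), the widest interval among the 9 probes.

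Bloc1s1 is shared by BLOC-1 and BORC. Its probes lie on the minus strand of chromosome 10, at chr10:128356981-128357040 (A_52_P546540) and chr10:128357678-128357737 (A_51_P142113). The first read 14.29, 14.22 and 14.19 in Prss55-/- against 14.24, 14.27 and 14.27 in wt, a difference of -0.03 (SE 0.049, limma adjusted p = 0.79). The second read 12.09, 12.11 and 12.00 against 11.95, 12.01 and 12.06, a difference of 0.06 (SE 0.055, limma adjusted p = 0.61). The genotypes overlapped at both probes and the differences had opposite signs.

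Bloc1s2, which BORC also shares, is read by probe A_51_P200622 on the minus strand at chr19:44214151-44216620, a span of 2470 bases. It read 11.27, 11.45 and 11.45 in Prss55-/- and 11.43, 11.46 and 11.58 in wt. Prss55-/- replicate 1 was the lowest of the 6, and the other Prss55-/- values lay within the wt range or close to it. The difference was -0.10 (SE 0.074, 95% interval -0.28 to 0.08, limma adjusted p = 0.51).

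Bloc1s3 is the subunit mutated in reduced pigmentation mice. Its probe A_52_P382876, on the minus strand at chr7:20091979-20092038, read 8.42, 8.34 and 8.31 in Prss55-/- and 8.29, 8.27 and 8.20 in wt. All 3 Prss55-/- mice were above all 3 wt mice, by a narrow gap. The difference was 0.10 (SE 0.055, 95% interval -0.03 to 0.24, limma adjusted p = 0.35), the lowest adjusted p among the 9 probes.

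Bloc1s4, also called cappuccino after its mouse mutant, is read by probe A_51_P390522 on the minus strand at chr5:37139124-37139183. It read 13.29, 13.34 and 13.29 in Prss55-/- and 13.43, 13.40 and 13.26 in wt, and the genotypes overlapped. The difference was -0.05 (SE 0.059, 95% interval -0.20 to 0.09, limma adjusted p = 0.66).

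Bloc1s5, known as muted, has probes at chr13:38694783-38694842 (A_51_P154534) and chr13:38711021-38711080 (A_52_P538447). The first read 12.28, 12.24 and 12.21 in Prss55-/- and 12.36, 12.32 and 12.34 in wt, a difference of -0.10 (SE 0.046, 95% interval -0.21 to 0.01, limma adjusted p = 0.31). The genotypes did not overlap there. The second read 8.83, 8.69 and 8.66 against 8.75, 8.78 and 8.58, which overlapped, and differed by 0.02 (SE 0.077, limma adjusted p = 0.90). The sign of that small difference turned when Prss55-/- replicate 1 or wt replicate 3 was left out.

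Over 14 alternatives the difference at A_51_P510466 ran from -2.84 to -2.11, and at A_52_P153957 from 0.14 to 0.24. The settings with no filter, the methods' t-test and the replicate block use the same normalized values, so they could not move either difference. The value nearest to 0 for the first probe, -2.11, came from the normexp background correction, which adds an offset of 50 to each signal. It lay outside the spread between mice, and the other 13 values of that probe ran from -2.84 to -2.67. Over 126 alternative values for the other 9 probes, 0 passed the adjusted threshold, with differences between -0.20 and 0.13 and a lowest adjusted p of 0.23 in limma.

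**Figure D3:**
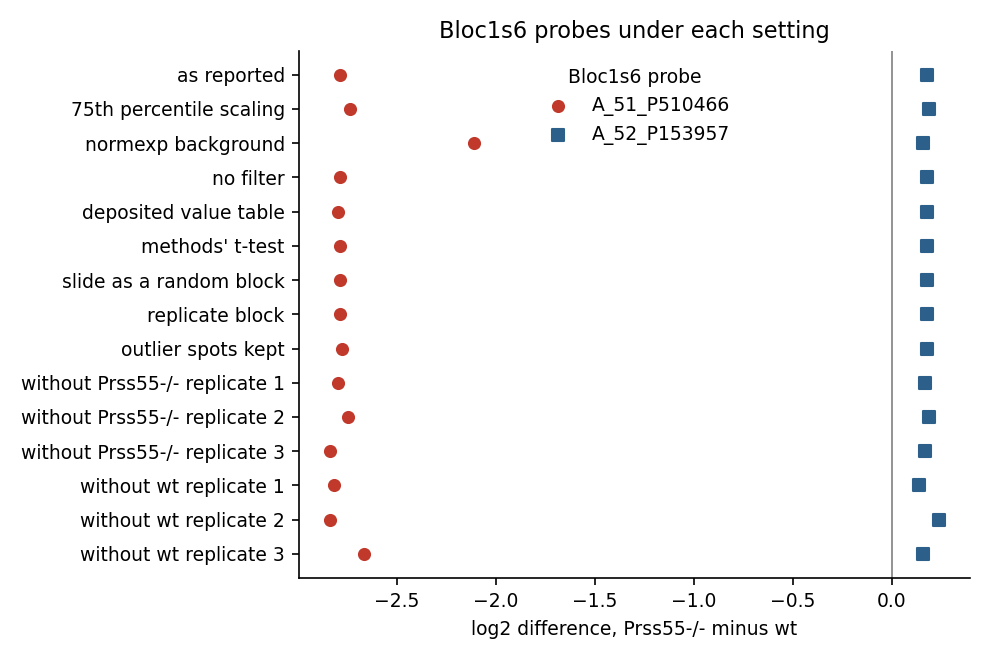
Log2 difference, Prss55-/- minus wt, of both Bloc1s6 probes as reported and under each of 14 alternative settings, with A_51_P510466 as circles and A_52_P153957 as squares. The first stays between -2.84 and -2.11 and the second between 0.14 and 0.24. The settings with no filter, the methods' t-test and the replicate block could not move these differences.

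The complexes that work with BLOC-1 were set beside it. BLOC-2 and BLOC-3 act in the same sorting route, AP-3 is the adaptor of a parallel one, BORC shares subunits with BLOC-1, HOPS and CORVET tether membranes to lysosomes and endosomes, and the last list holds Bloc1s5, SNAREs, Rab32 and other partners. Each gene was represented by its brightest tested probe. Of 19163 genes, 267 (1.39%) passed the adjusted threshold in this way, 117 (0.611%) up and 150 (0.783%) down. Of the 38 genes in the lists 35 were tested, and 1 passed (2.86%), with 0 higher and 1 lower. Ap3b2, Rab38 and Snap25 were not above background on enough arrays to be tested. The median difference over the 35 was -0.05, beside -0.0024 over all genes, and the values ran from -0.47 to 0.15.

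The gene that passed was Vps39, a HOPS subunit. Its probe A_51_P460828, at chr2:120142641-120142700, read 11.23, 11.26 and 11.24 in Prss55-/- and 11.70, 11.70 and 11.76 in wt, a difference of -0.47 (SE 0.044, limma adjusted p = 0.011). Without Prss55-/- replicate 2, Prss55-/- replicate 3 or wt replicate 1 its adjusted p was 0.078, 0.084 and 0.067. Its other probe, A_52_P274184, starts 3816 bases away and did not show the fall, with a difference of -0.01 (limma adjusted p = 0.92). Vps39 lies 2.43 Mb from Bloc1s6 on chromosome 2. The other 9 tested genes of the list named HOPS and CORVET, Vps33b and Vipas39 among them, did not pass. The median of that list was -0.03.

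No gene of the other 5 lists passed. Of their 25 tested genes 0 had an unadjusted p below 0.05 in limma, beside 20.0% of all genes. By the methods' t-test 4 did, none of them after adjustment, beside 3482 of all 19163 genes before adjustment. These counts rest on the brightest probe of each gene. Less bright probes of Snap23, a partner, differed by 0.15 (A_51_P485383) and 0.16 (A_52_P155778). Their unadjusted limma p was 0.036 and 0.018, and their adjusted p 0.23 and 0.17. In BLOC-2 all 3 genes were tested (median -0.09), and Hps5 had the largest difference, -0.22 (limma adjusted p = 0.54). Both BLOC-3 genes were tested (median 0.02), and Hps1 differed by 0.12 (limma adjusted p = 0.26). In AP-3, 6 of 7 genes were tested (median 0.02), and Ap3s2 differed by -0.28 with an SE of 0.64, since its values ran from 5.31 to 7.60 within the wt mice alone. In BORC all 5 genes outside BLOC-1 were tested (median -0.08), and Borcs8 differed by -0.21 (limma adjusted p = 0.48), with wt replicate 3 at 13.44 apart from 5 arrays between 12.87 and 12.94. Among the partners 9 of 11 were tested (median -0.05), and Rab32, a small GTPase of melanosome transport, differed by -0.25 (limma adjusted p = 0.37).

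**Figure D4:**
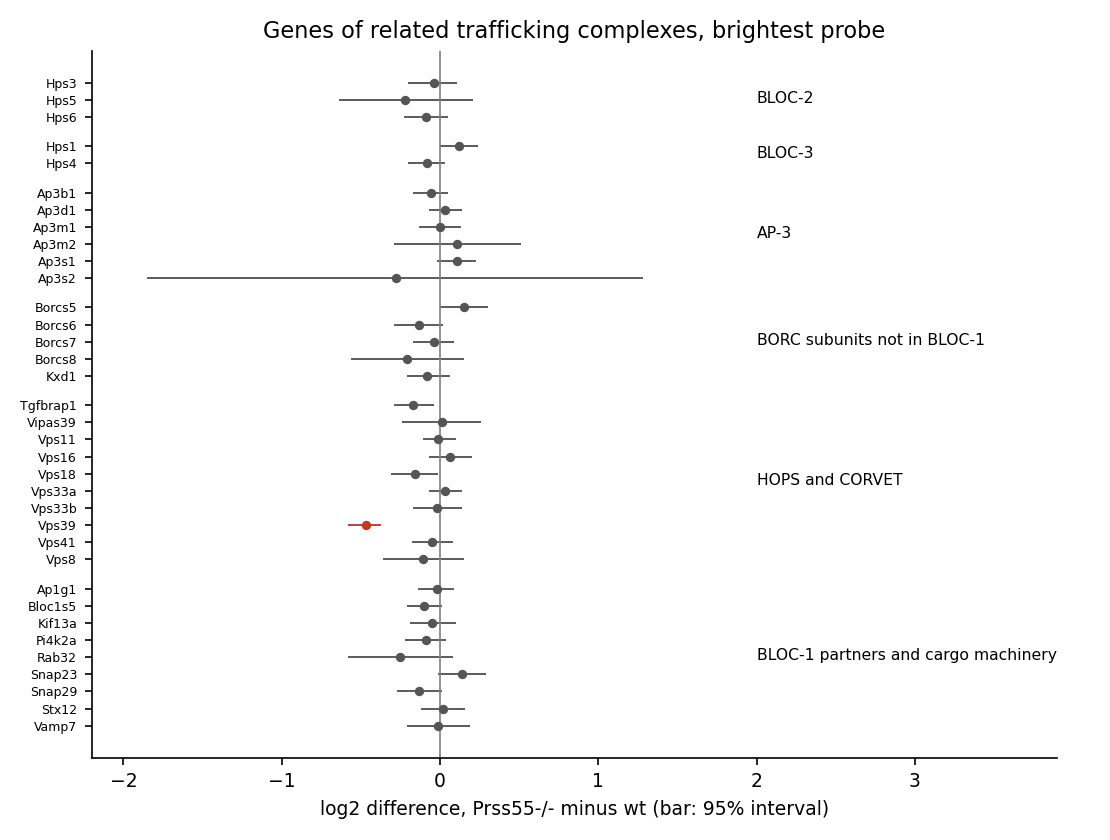
Log2 difference, Prss55-/- minus wt, of the brightest tested probe of each of 35 genes in 6 related lists, with its 95% interval as a bar. Vps39 (red) is the 1 gene past an adjusted p of 0.05, at -0.47, and the interval of Ap3s2 is the widest.

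Genes near Bloc1s6 on chromosome 2 were described next, by the array's own positions. Within 1 Mb of the Bloc1s6 probes 17 genes were tested and 3 passed (17.6%, beside 1.39% of all genes), 2 higher and 1 lower, and the median difference was 0.09. The difference between these shares was not tested. Spg11, the gene of spatacsin, was lower at probe A_51_P289414, with a difference of -0.97 (limma adjusted p = 0.0025), which read 11.76, 11.72 and 11.77 in Prss55-/- and 12.67, 12.79 and 12.69 in wt. Another Spg11 probe, A_51_P289407, starts 220 bases away and differed by -0.03 (limma adjusted p = 0.85). A further probe of Spg11, A_52_P150775, differed by -1.14 with no overlap between the genotypes, but did not pass (limma adjusted p = 0.15). It was not well above background in any Prss55-/- mouse, so the size is uncertain. Spg11 lies 0.69 Mb from Bloc1s6.

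Patl2, a gene of an RNA-binding protein, was higher by 0.61 (limma adjusted p = 0.022), with 7.41, 7.56 and 7.45 in Prss55-/- against 6.88, 6.95 and 6.77 in wt. Shf, the gene of an adaptor protein, was higher by 0.49 (limma adjusted p = 0.010), with 9.55, 9.62 and 9.56 against 9.09, 9.09 and 9.10. Neither gene overlapped between the genotypes. Patl2 lost its call without any one of Prss55-/- replicates 2 and 3 and wt replicates 1 and 2 (adjusted p 0.055 to 0.11), and also with no filter (0.059) and by the methods' t-test (0.094). Shf lost its call without any one of Prss55-/- replicates 2 and 3 and wt replicate 1 (adjusted p 0.067 to 0.080).

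The nearest tested genes on either side did not pass. The nearest at lower coordinates, 1700056I18Rik, 40.3 kb away, read 5.38, 4.85 and 4.55 in Prss55-/- and 6.18, 5.82 and 6.48 in wt, a difference of -1.23 (limma adjusted p = 0.084). It was well above background in only 1 of the 3 Prss55-/- mice and in all 3 wt mice, so the size is uncertain. With the normexp background it was -0.42 (adjusted p = 0.13), and without Prss55-/- replicate 1 it was -1.47 (adjusted p = 0.038). The nearest at higher coordinates, Sqor, a mitochondrial sulfide oxidoreductase 60.4 kb away, read 16.09, 16.08 and 16.02 against 15.88, 16.00 and 16.06, a difference of 0.09 (limma adjusted p = 0.49).

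A window of 3 Mb, looked at after the values were seen, held 75 tested genes, of which 14 (18.7%) passed, beside 1.39% of all genes. All the calls in it lay on one side. Of 107 tested probes at lower coordinates 17 passed (15.9%), 8 higher and 9 lower, beside 1.21% of all tested probes. Among the 17, Ltk and Pla2g4e were well above background in wt mice only, and so entered the test through wt. Of 15 tested probes at higher coordinates 0 passed in limma or, after adjustment, by the methods' t-test. At an unadjusted limma p below 0.05 there were 6 of these 15 (40.0%), beside 19.1% of all probes. The difference between these shares was not tested. Past Sqor there was no tested probe until 1.91 Mb, so the higher side was thinly covered.

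**Figure D5:**
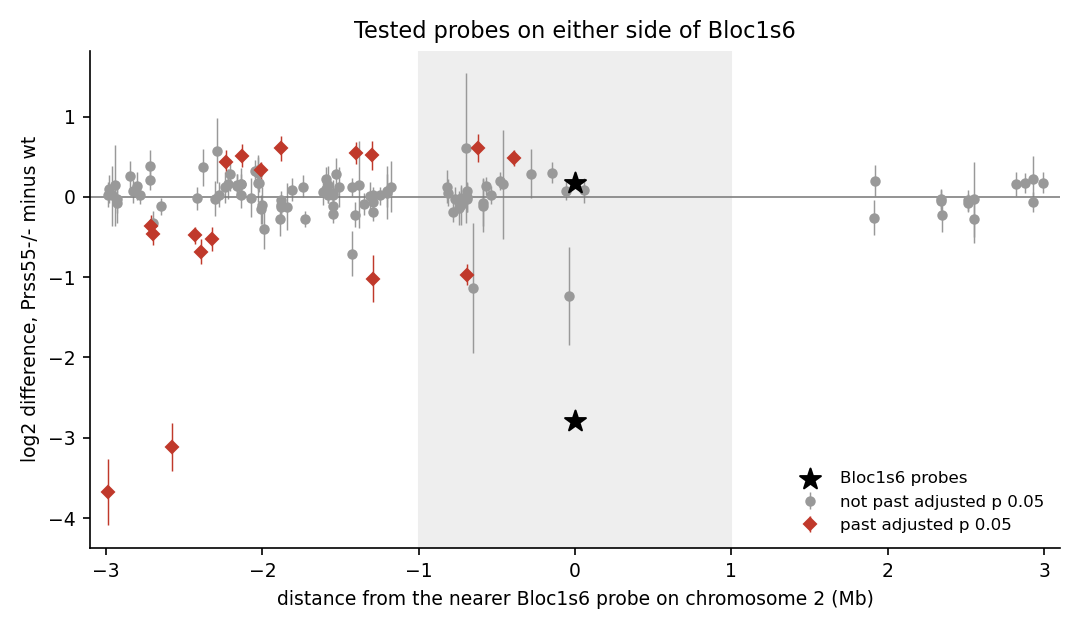
Log2 difference, Prss55-/- minus wt, of each tested probe within 3 Mb of Bloc1s6 on chromosome 2 against its distance in Mb, with the 95% interval as a bar and the 1 Mb window shaded. Red diamonds passed an adjusted p of 0.05, all 17 at lower coordinates than Bloc1s6, and the stars are the Bloc1s6 probes at -2.79 and 0.18. The lowest diamonds, Ltk and Pla2g4e, were not well above background in any Prss55-/- mouse, so their differences are bounds.

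The genes most like each Bloc1s6 probe over the 6 arrays were found by Pearson correlation among 16028 genes. With A_51_P510466 these were Vps39 (r = 0.9977), Dock5 (0.9968), Uvrag (0.9956), Ap4s1 (0.9953) and Pla2g4e (0.9941). The first 4 differed by -0.47, -2.08, -0.15 and -0.31. Vps39 and Pla2g4e lie on chromosome 2, 2.43 and 2.58 Mb from Bloc1s6, and Pla2g4e, not well above background in any Prss55-/- mouse, has only a bound there. Dock5, Uvrag and Ap4s1 lie on chromosomes 14, 7 and 12. Chromosome 14 also carries the targeted gene Prss55, and the distance of Dock5 from it was not worked out. With A_52_P153957 they were Mdm1 (r = 0.9956), Cldn34b3 (0.9942), BC061237 (0.9938), Fry (0.9927) and Tdp1 (0.9922), with differences of 0.31, 0.27, 0.37, 0.25 and 0.12. All 5 had wt replicate 2 as the highest wt mouse, as that probe did. A plain step between the genotypes correlated with the first probe at -0.996 and with the second at 0.823. With 6 arrays these values describe the arrays and carry no test.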

How the data were processed

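RNA from the testes of 6 mice was hybridised to single-dye 60-mer arrays. The authors deposited scanner output made with Agilent Feature Extraction 10.7, per the labels, whose processed signal is an intensity already corrected for background on each array. They also deposited a table of log2 values, used as an alternative. The file headers name mm9 as the build of the probe positions. Control spots were left out, spots the scanner software marked as outliers were set aside, signals under 1 were set to 1, and log2 signals were quantile-normalized over the 6 arrays. Spots of a probe were averaged. A probe entered the test, as 28606 did, if either genotype had it well above background throughout. Symbols were matched to RefSeq by the printed name, else by accession, else by a synonym that belongs to 1 gene only. Together these named 33728 of 41174 probes.

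The test was limma's moderated one (version 3.58.1, under R 4.3.3, two-sided), adjusted by Benjamini-Hochberg over all tested probes. The number of arrays, 3 per genotype, limits the precision. The methods' t-test is Student's test on the same values. Simulated data with known changes were used to test the scripts. Genes were named by rule: every probe of every member, Prss55, the genes of each related list past the threshold or else its largest difference, the neighbours past the threshold and the nearest on each side, and the 5 genes most like each Bloc1s6 probe. Bloc1s5, the probes of a named gene that disagree, and the 3 Mb window are named besides. The members and lists were chosen with earlier results of these data known. Plots were made with Python 3.11.15. Alternatives covered scaling, background, filter, source of values, test, slide, replicate number, outlier spots and left-out arrays.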

Additional observations from a re-analysis of the deposited data

How the results depend on the processing

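The log2 difference between the Bloc1s6 probes, -2.96, was -2.27 with the normexp background, and -3.08 to -2.83 with one array left out. The count of 0 for the other subunits held under all 14 alternatives. The related lists gave 0 calls with the replicate number as a block and 0 to 1 with one array left out (0 without Prss55-/- replicates 2 or 3 or wt replicate 1), and the adjusted p of Vps39 under the replicate block was 0.12. The genes called within 1 Mb of Bloc1s6 numbered 0 with the replicate block and 1 to 4 with one array left out (1 without Prss55-/- replicates 2 or 3 or wt replicate 1). They were 1 (12.5% of tested genes) in a window of 0.5 Mb, 6 (14.6%) in 2 Mb and 14 (18.7%) in 3 Mb, beside 1.39% of all genes. The 3 Mb window was chosen after seeing the data. Calls over all probes, 346, were 140 with no filter, 87 by the methods' t-test with Benjamini-Hochberg adjustment, 13 with the replicate block, and 44 to 862 with one array left out. Leaving out Prss55-/- replicate 1, 2 or 3 gave 862, 57 or 44, and leaving out wt replicate 1 or 2 gave 67 or 137. Spg11 had an adjusted p of 0.078 and Prss55 one of 0.10 with the replicate block, and Prss55 one of 0.071 by the methods' t-test. With one array left out Ap3s2 ran from -0.83 to 0.31 (above 0 when wt replicate 2 was out), and Bloc1s5 probe A_52_P538447 from -0.04 to 0.06 (below 0, at -0.03 or -0.04, when Prss55-/- replicate 1 or wt replicate 3 was out). The causes were not tested. Deviations of same-numbered mice correlated at -0.11 to -0.02, and those of other-numbered mice at -0.06 to 0.11. With 3 mice per genotype these values cannot show whether the replicate numbers pair the mice. The paper describes the arrays as made from 3 pairs of wt and Prss55-/- mice. Slide as a random block had a consensus correlation of 0.036 and gave 287 calls over all probes. Since no slide held both genotypes, this block could not separate slide from genotype.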
